A study of Mus musculus with 12 samples.

Results

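The genes described here are the chromatin remodellers and histone modifiers of adult cardiomyocytes (ACM): every gene whose symbol began with Smarca to Smarce, Hdac, Kdm, Kmt2, Chd or Arid followed by its number. The rule found 67 of the 21493 genes counted: 13 Smarc, 11 Hdac, 18 Kdm, 5 Kmt2, 10 Chd and 10 Arid genes. It used symbols and no measured value. The cells came from hearts of 3-month-old mice that carried the desmin gene (Des+/+) or lacked it in every cell (Des-/-), and that had swum, as an exercise stress (swim), or had not (non-swim). Desmin is the intermediate filament protein of muscle. Each of the 4 groups held 3 libraries of poly-A RNA, and the study's methods give each library as the cells of several mice, so that a replicate was a pool. In those methods the mice named Des+/+ and Des-/- also carry a GFP transgene driven by the Myh6 promoter, which the labels of these libraries do not mention.

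Cells open, close and mark chromatin through a few conserved machines. SWI/SNF (BAF) complexes slide nucleosomes with 1 of 2 exchangeable ATPases, Smarca4 and Smarca2, around a core that includes Smarcb1, and take up 1 of several Smarcd and Arid subunits. The Chd3, Chd4 and Chd5 ATPases join Hdac1 and Hdac2 in the NuRD complex, and histone deacetylases remove acetyl groups. Most Kmt2 enzymes methylate lysine 4 of histone H3, and Kdm enzymes remove methyl groups from lysines. In the heart, Smarcd3 (BAF60c) is known for cardiac development, and the class IIa deacetylases Hdac4, Hdac5, Hdac7 and Hdac9 for holding back MEF2 factors.

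Reads assigned to genes ranged from 4320819 to 12072443 per library, and the 67 genes took 0.415 to 0.434% of them in Des+/+ non-swim, 0.439 to 0.501% in Des+/+ swim, 0.507 to 0.602% in Des-/- non-swim and 0.547 to 0.592% in Des-/- swim libraries. Reads that matched no gene in counting also took a share of the reads counted. It was 34.0 to 39.3%, 45.9 to 50.4%, 34.2 to 52.3% and 57.2 to 64.5% in the same order of groups. This share was thus higher in swim than in non-swim libraries of either genotype, and in Des-/- swim than in Des+/+ swim libraries, without overlap. Its part in the results below was not tested. Des itself stood at 1472, 3647 and 1982 CPM (counts scaled to 1000000 reads per library) in replicates 1 to 3 of Des+/+ non-swim, at 1636, 973 and 1210 in Des+/+ swim, at 72.2, 56.2 and 50.3 in Des-/- non-swim and at 91.3, 97.5 and 101 in Des-/- swim libraries, so that the groups of both genotypes did not overlap. Of the 12 cardiomyocyte markers, 12 were called lower in Des-/- without swimming and 1 after it. Their summed level ran from 72418 to 109161 CPM in Des+/+ non-swim, from 35426 to 58400 in Des+/+ swim, from 7168 to 33588 in Des-/- non-swim and from 17743 to 30461 in Des-/- swim libraries. Of 14 fibroblast markers, 13 were called higher in Des-/- without swimming and 3 after it, with sums of 6937 to 8275, 6109 to 7507, 14350 to 47638 and 9667 to 18411 CPM in the same order of groups. Of 14 macrophage markers, 12 were called higher without swimming and 0 after it (edgeR; sums of 244 to 376, 279 to 354, 463 to 5284 and 256 to 1525 CPM). Of 12 endothelial markers, 0 were called between genotypes or with swimming. Their sums were 6755 to 8372, 8426 to 12441, 5888 to 8776 and 8230 to 10879 CPM. These were higher in Des+/+ swim than in Des+/+ non-swim libraries, without overlap. With swimming, 11 of the 12 estimates were above 0 in Des+/+ and 12 in Des-/- mice. Of 9 mural cell markers, 1 was called lower in Des-/- without swimming, and of 4 lymphocyte markers tested, 2 were called higher. After swimming, 0 of either were called. The highest fibroblast and macrophage sums of each Des-/- group were those of its replicate 3, and of these markers, 0 were at 0 in all libraries of a group. Levels are means over the cells of a pool, so fewer cells of a type and less RNA per cell cannot be told apart, and the part of this shift in the results below was not tested beyond the fits named there.

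Nearly all of these genes were expressed. The low-count filter kept 65, which were tested; Kdm4d (0 to 4 reads in a library) and Arid3c (0 to 6 reads) did not pass it. Per length of exon, the highest level over the 12 libraries was that of Chd4, the main ATPase of NuRD, at 44.6 RPKM (CPM per 1000 bases of exon), followed by Hdac7 at 40.4, the BAF scaffold subunit Smarcc2 at 33.1, the BAF ATPase Smarca4 at 29.6 and Hdac5 at 23.4. In the other families the highest were Kdm6b, which removes methyl groups from lysine 27 of histone H3, at 19.2, Kmt2e at 17.8 and the BAF subunit Arid1a at 14.3 RPKM. Chd4, Hdac7, Smarcc2 and Smarca4 are neighbours whose ranges over libraries overlapped, at 34.2 to 51.3, 25.6 to 67.4, 27.8 to 40.5 and 23.9 to 37.1 RPKM, so their order is not fixed by these data. The lowest tested included Chd5, the NuRD ATPase known from neurons, at 0.282 RPKM, and the Y-linked Kdm5d at 0.801 RPKM, with a range of 0 to 2.41. The plot of levels per length shows that for most genes the 4 group means lay close together against the span between genes. RPKM values divide by the summed length of all annotated exons of a gene, which is longer than its main transcript where many variants are annotated.

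**Figure D1:**
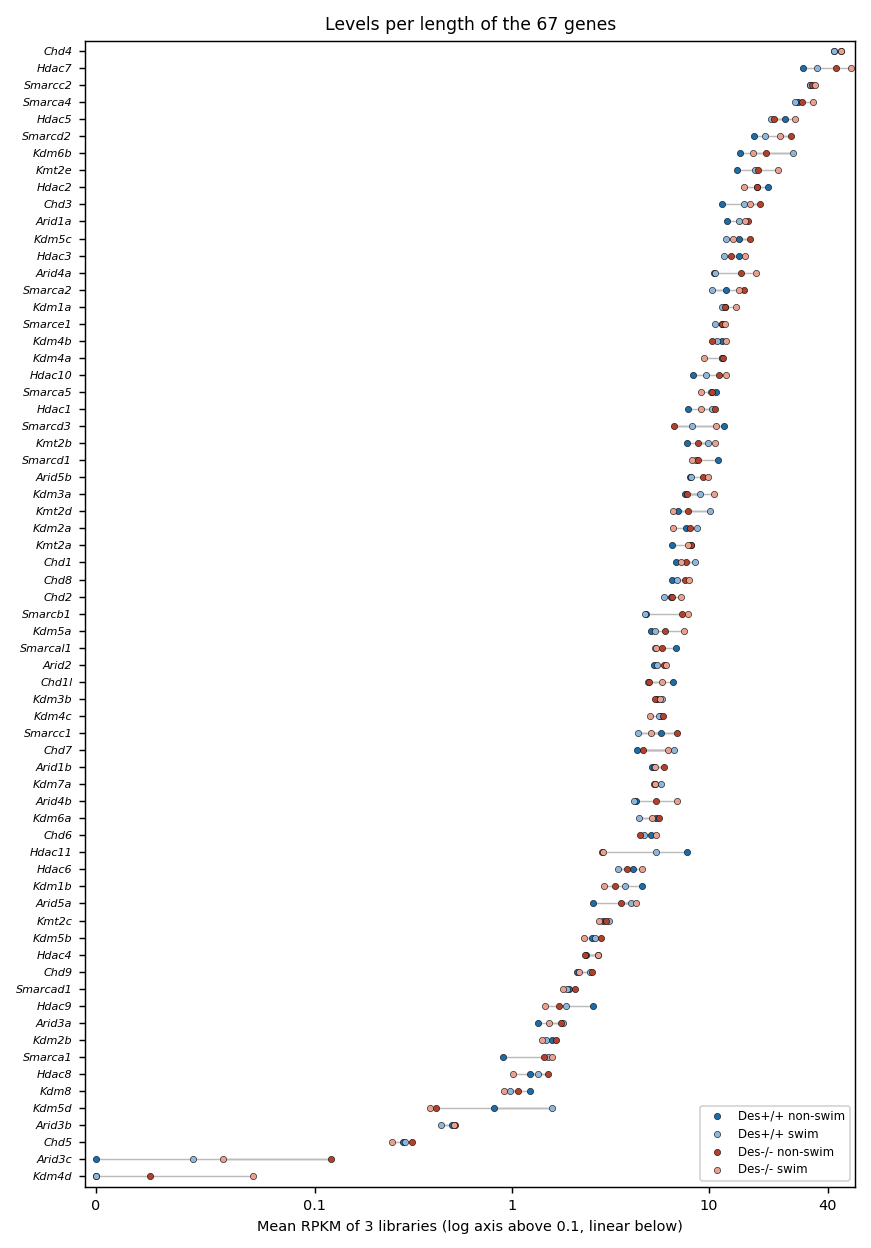
Level per length of each of the 67 genes, from the highest (top) to the lowest. The x axis is the mean RPKM of the 3 libraries of a group, on a log scale above 0.1 and linear below, and each point is 1 of the 4 groups. Group means lie close together for most genes; Hdac11, Smarcd3, Kdm5d and Smarcb1 are among those with points set apart by group.

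The first comparison asks how the genes differ between genotypes at rest. Of the 65 tested, 7 were called in Des-/- non-swim against Des+/+ non-swim libraries (10.8%), where 32.0% of all 13158 genes tested were called. The genes called higher were Smarcd2, Smarcb1, Chd3, Arid4a and Hdac1 (5 of 65, 7.69%, against 14.0% of all genes), and those called lower were Hdac11 and Smarcd3 (2 of 65, 3.08%, against 18.0%). DESeq2 called 8, the same 7 and Arid1a (6 higher and 2 lower), against 36.4% of all genes. At an unadjusted edgeR p under 0.05 there were 12 (18.5%, against 43.7% of all genes). Differences were small: 1 gene, Hdac11, had a log2 difference of 1 or more in size (1.54%, against 23.9%), and the median size was 0.19 on the log2 scale, against 0.43 over all genes. The 95% interval of the difference lay wholly between -1 and 1 for 54 genes (83.1%, against 51.2%). The libraries of the 2 genotypes did not overlap for 16 genes (24.6%, against 47.9%). The median count over the tested members was 530.5 reads per library, against 258.4 over all genes, and the median standard error was 0.17 against 0.23. The estimate was above 0 for 45 genes (69.2%, against 52.6%), including 9 of 9 Arid and 5 of 5 Kmt2 genes tested. By family, the median log2 difference was 0.32 for Arid, 0.19 for Kmt2, 0.14 for Chd, 0.07 for Smarc, 0.04 for Kdm and -0.09 for Hdac genes.

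Among SWI/SNF genes, the core subunit Smarcb1 rose and the exchangeable Smarcd subunits moved in opposite directions. Smarcb1 (ENSMUSG00000000902, chr10:75896769-75921617) stood at 42.1, 33.4 and 38.3 CPM in Des+/+ non-swim and at 60.6, 49.0 and 62.6 CPM in Des-/- non-swim libraries. The lowest Des-/- library was above the highest Des+/+ library, and the log2 difference was 0.60 (SE 0.13, edgeR adjusted p 0.00662). Smarcd2 (BAF60b; ENSMUSG00000078619, chr11:106263179-106272972) stood at 61.4, 55.0 and 66.3 CPM in Des+/+ and at 94.5, 89.6 and 96.3 CPM in Des-/- libraries. Its groups did not overlap either, and the log2 difference was 0.62 (SE 0.13, edgeR adjusted p 0.00432), the smallest p among the 65. Smarcd3 (BAF60c; ENSMUSG00000028949, chr5:24590818-24624411), the variant known from heart development, stood at 46.1, 80.5 and 56.1 CPM in Des+/+ and at 35.7, 36.5 and 29.7 CPM in Des-/- libraries. Replicate 2 of Des+/+ was the highest, but also without it the log2 difference was called, at -0.59, against -0.84 (SE 0.20, edgeR adjusted p 0.00931) with all libraries. Smarcd1 (BAF60a) was lower in every Des-/- library, at 37.7, 34.3 and 34.5 CPM against 42.9, 50.0 and 40.9, with a log2 difference of -0.33 that was not called (SE 0.15, edgeR adjusted p 0.118). The ATPases were not called: Smarca4 differed by 0.07 on the log2 scale (95% interval -0.22 to 0.35) and Smarca2 by 0.30 (-0.01 to 0.60). Of the other Smarc genes, 0 were called by edgeR or by DESeq2 (which called 36.4% of all genes), and Smarca1, an ISWI ATPase with few reads, had the highest estimate, at 0.69 (95% interval -0.08 to 1.46).

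The sequences before the starts of these 3 SWI/SNF genes and of Hdac11 are shown because these are 4 of the 7 genes called between genotypes at rest, both called lower among them. No window was matched to Chd3, Arid4a and Hdac1. They are the 250 bases before a RefSeq start (GRCm38.p6), 5′ to 3′ on the strand of the gene, with CpG dinucleotides in capitals. The Smarcb1 sequence is chr10:75921615-75921864 and the Smarcd2 sequence chr11:106267633-106267882, both on the minus strand. The Smarcd3 sequence is chr5:24602003-24602252 on the minus strand, and the Hdac11 sequence chr6:91156565-91156814 on the plus strand. The starts lie 3 bases (Smarcb1), 5340 bases (Smarcd2), 22409 bases (Smarcd3) and 150 bases (Hdac11) from the 5′ end of the gene in GENCODE M21, so that for Smarcd2 and Smarcd3 other annotated starts lie upstream.
Smarcb1: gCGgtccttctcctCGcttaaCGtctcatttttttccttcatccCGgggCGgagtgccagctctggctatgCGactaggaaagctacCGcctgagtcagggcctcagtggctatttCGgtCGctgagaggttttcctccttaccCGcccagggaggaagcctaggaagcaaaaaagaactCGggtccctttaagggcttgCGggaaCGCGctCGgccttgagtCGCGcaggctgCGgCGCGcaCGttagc
Smarcd2: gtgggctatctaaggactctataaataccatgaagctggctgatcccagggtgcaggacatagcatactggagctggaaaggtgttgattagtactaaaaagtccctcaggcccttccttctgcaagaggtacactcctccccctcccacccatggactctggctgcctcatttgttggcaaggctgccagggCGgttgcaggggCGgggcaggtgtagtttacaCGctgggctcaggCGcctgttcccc
Smarcd3: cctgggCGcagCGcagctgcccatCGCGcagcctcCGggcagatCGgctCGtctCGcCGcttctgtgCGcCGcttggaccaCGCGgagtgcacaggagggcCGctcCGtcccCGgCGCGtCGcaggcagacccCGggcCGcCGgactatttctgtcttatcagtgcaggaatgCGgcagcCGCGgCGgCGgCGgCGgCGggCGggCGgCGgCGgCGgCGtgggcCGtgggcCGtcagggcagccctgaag
Hdac11: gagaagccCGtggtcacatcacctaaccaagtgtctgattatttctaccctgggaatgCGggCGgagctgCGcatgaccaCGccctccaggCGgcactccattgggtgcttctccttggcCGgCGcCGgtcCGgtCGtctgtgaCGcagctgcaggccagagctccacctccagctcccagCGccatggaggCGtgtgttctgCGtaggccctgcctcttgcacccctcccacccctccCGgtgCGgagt
These windows differ in base composition: they held 38 CpG at Smarcd3, 4 at Smarcd2, 17 at Hdac11 and 21 at Smarcb1, and 76.0%, 56.4%, 65.2% and 59.6% G and C in the same order. On either strand, all 4 windows hold the GC box GGGCGG, the Smarcd2 window also holds TATAAA, the Smarcd3 and Hdac11 windows the MCAT motif CATTCC, and the Hdac11 window CCAAT.

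**Figure D2:**
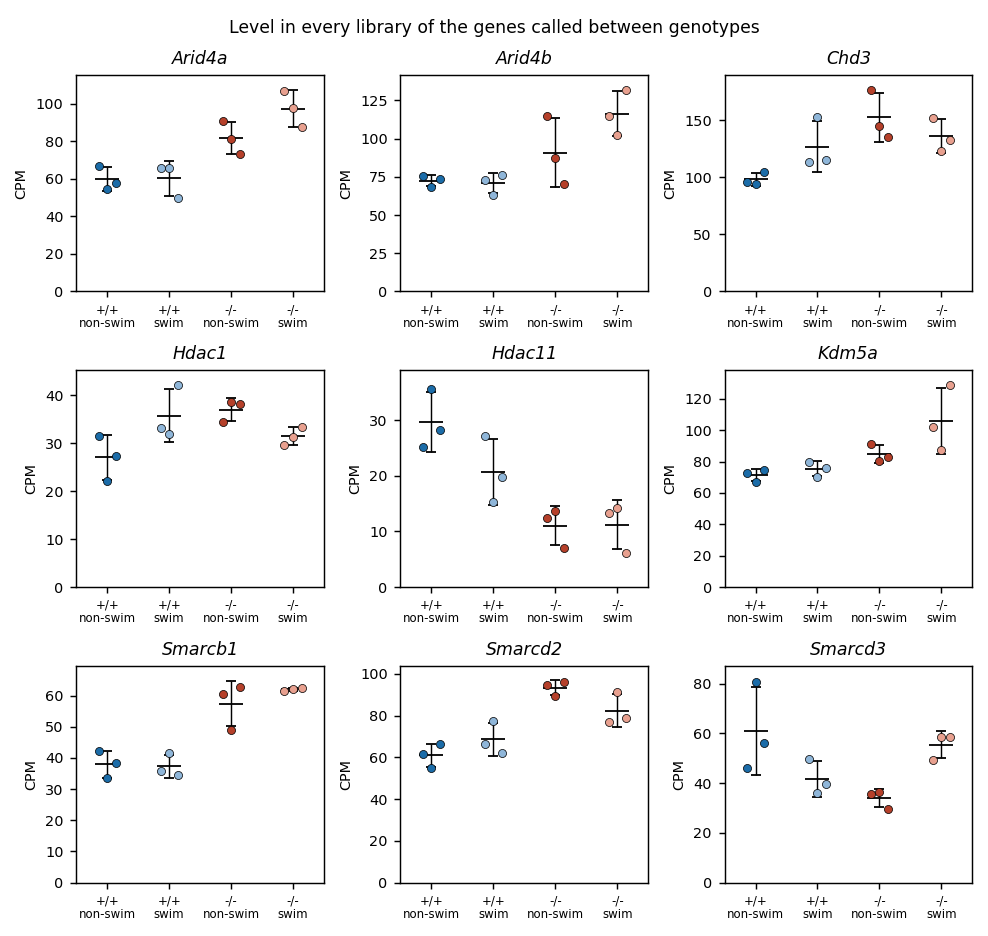
Level in CPM (y axis, from 0) of the 9 genes called in either genotype comparison, 1 panel per gene. Points are the 3 libraries of each group (replicates 1 to 3 from left to right), and bars give the mean and SD. Smarcb1 and Arid4a are higher in Des-/- libraries in both conditions, and the mean of Smarcd3 is lowest in Des-/- non-swim libraries.

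Among NuRD genes and deacetylases, Chd3 and Hdac1 rose and Hdac11 fell. Chd3 (ENSMUSG00000018474, chr11:69343273-69369406) stood at 96.2, 94.3 and 104 CPM in Des+/+ non-swim and at 177, 145 and 136 CPM in Des-/- non-swim libraries, without overlap (log2 difference 0.63, SE 0.16, edgeR adjusted p 0.0105). Its more abundant relative Chd4 stood at 297, 412 and 321 CPM against 357, 353 and 410, and the groups overlapped (log2 difference 0.12, 95% interval -0.25 to 0.49). Hdac1 (ENSMUSG00000028800, chr4:129516104-129542713) stood at 31.5, 22.2 and 27.4 CPM in Des+/+ and at 34.3, 38.6 and 38.1 CPM in Des-/- libraries. These did not overlap, with a log2 difference of 0.45 (SE 0.16, edgeR adjusted p 0.0437). The call on Hdac1 was lost (adjusted p of 0.0561 to 0.153) on leaving out any 1 of 8 libraries: replicates 2 and 3 of Des+/+ non-swim, replicate 1 of Des+/+ swim, each Des-/- non-swim library and replicates 1 and 2 of Des-/- swim. Hdac11 (ENSMUSG00000034245, chr6:91156665-91174692), the class IV deacetylase, stood at 25.1, 35.6 and 28.2 CPM in Des+/+ and at 12.3, 13.7 and 7.00 CPM in Des-/- libraries. Every Des-/- library was below every Des+/+ library, and the log2 difference of -1.43 (SE 0.34, edgeR adjusted p 0.00903) was called without any 1 library, at -1.62 to -1.18. Hdac11 was also the 1 gene of the 65 whose 3 libraries stood in the same order as the cardiomyocyte marker sums in each of the 4 groups; in replicates 1 to 3 of Des-/- non-swim those sums were 15601, 33588 and 7168 CPM. That is 1.54% of the 65, against 1.06% of all genes tested. With Smarcd3 and the uncalled Kdm4b, which had that order in 3 of the 4 groups, it is 3 genes (4.62%, against 6.42% of all genes).

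The class IIa deacetylases were not called. Hdac7 stood at 187, 222 and 197 CPM in Des+/+ and at 355, 291 and 241 CPM in Des-/- libraries, without overlap but with a wide interval (log2 difference 0.55, 95% interval -0.10 to 1.20). Hdac9 stood at 38.7, 43.1 and 31.3 CPM against 26.0, 32.3 and 18.0, and replicate 2 of Des-/- lay above replicate 3 of Des+/+ (log2 difference -0.57, SE 0.23, edgeR adjusted p 0.0799). Hdac4 stood at 29.3, 44.3 and 38.9 CPM against 41.9, 38.7 and 30.6, and Hdac5 at 178, 267 and 197 CPM against 219, 180 and 164. Both overlapped, and their log2 differences were -0.02 (95% interval -0.47 to 0.43) and -0.19 (-0.66 to 0.28).

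Arid4a (ENSMUSG00000048118, chr12:71015990-71098592), a partner of the Sin3 corepressor that carries Hdac1 and Hdac2, was the called gene of its family. It stood at 66.8, 54.7 and 57.6 CPM in Des+/+ non-swim and at 90.7, 81.0 and 73.3 CPM in Des-/- non-swim libraries, without overlap (log2 difference 0.45, SE 0.15, edgeR adjusted p 0.0374). The call was lost (adjusted p of 0.0523 to 0.125) on leaving out any 1 of 5 libraries: replicate 2 or 3 of Des+/+ non-swim, replicate 1 or 2 of Des-/- non-swim and replicate 2 of Des-/- swim. Arid1a, a DNA-binding subunit of the BAF complex, stood at 142, 141 and 140 CPM in Des+/+ and at 186, 189 and 165 CPM in Des-/- libraries. It had no overlap but missed the threshold in the main fit (log2 difference 0.35, SE 0.13, edgeR adjusted p 0.0622). DESeq2 called it (0.36, DESeq2 adjusted p 0.0283), as did edgeR with upper-quartile scaling (0.45, edgeR adjusted p 0.0268). Of the 17 Kdm and 5 Kmt2 genes tested, 0 were called by edgeR or by DESeq2, and 1 of each, Kdm1b at -0.46 and Kmt2e at 0.35, had an unadjusted p under 0.05.

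A cell score, the mean log2(CPM + 1) of the fibroblast markers minus that of the cardiomyocyte markers, ran from -4.84 to -3.54 in the Des+/+ libraries and from -2.69 to 1.43 in the Des-/- libraries, without overlap. With this score as a covariate, 0 of the 65 genes were called in this comparison, and 0.0988% of all genes. Because the score did not overlap between genotypes, this fit cannot tell genotype from cell mix, and its estimates do not sort the genes by either. Its log2 differences were 0.54 for Smarcd2, 0.72 for Chd3, 0.68 for Arid4a, 0.23 for Smarcb1 and 0.28 for Hdac1. Smarcd3 was at -0.41, and Hdac11 changed sign, to 0.19. The edgeR adjusted p of these 7 genes ran from 0.325 to 0.881. Without replicate 3 of both Des-/- groups, 14 genes were called (21.5%, against 28.0% of all genes): 6 of the 7 (Hdac1 was lost), and Arid1a, Arid4b, Hdac7, Hdac10, Kdm5d, Kmt2a, Kmt2e and Smarca2. Kdm5d lies on chromosome Y, and the Des-/- libraries left in that fit held 0 to 0.142 CPM of it.

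**Figure D3:**
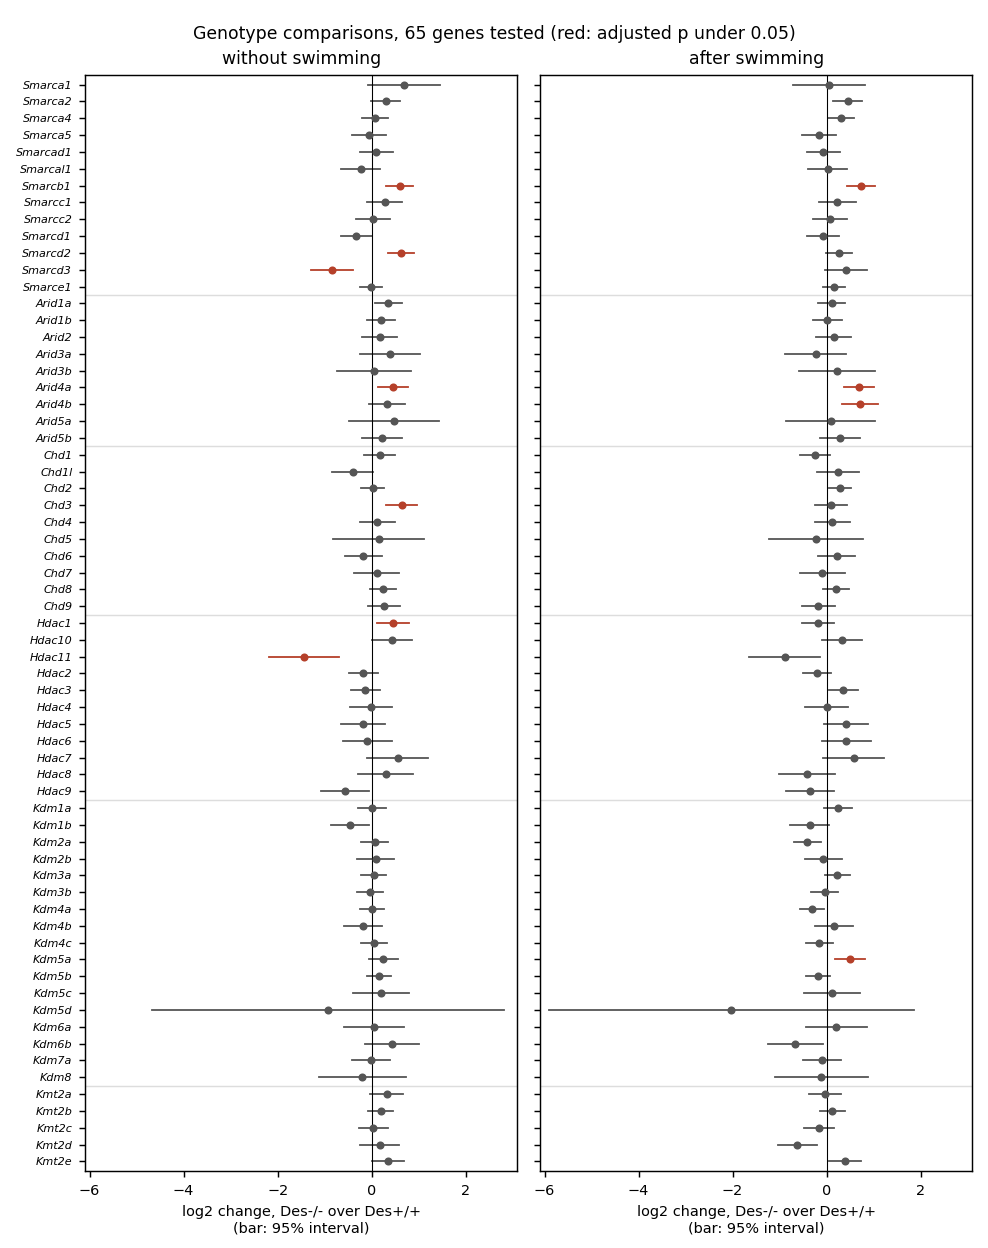
Difference between genotypes of the 65 genes tested, without swimming (left) and after it (right), grouped by family. The x axis is the log2 change of Des-/- over Des+/+, points are edgeR estimates, bars their 95% intervals, and red marks an adjusted p under 0.05. Most points lie within 1 of 0, and the widest intervals are those of Kdm5d.

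The second comparison asks the same after swimming. Of the 65 genes, 4 were called (6.15%, against 10.6% of all genes), and all 4 were higher in Des-/- swim than in Des+/+ swim libraries (6.15%, against 5.01%), with 0 lower (against 5.57%): Smarcb1, Arid4a, Arid4b and Kdm5a. DESeq2 called 8 (12.3%, against 17.7% of all genes), 6 higher and 2 lower: these 4, Chd2 and Smarca2 higher, and Kmt2d and Kdm2a lower. At an unadjusted p under 0.05 there were 14 (21.5%, against 30.5%). The libraries did not overlap for 17 genes (26.2%, against 35.9%). The interval of the difference lay between -1 and 1 for 52 genes (80.0%, against 56.6%), and the median size of the difference was 0.22, against 0.35 over all genes. Smarcb1 stood at 35.9, 41.5 and 34.6 CPM in Des+/+ swim and at 61.4, 62.1 and 62.3 CPM in Des-/- swim libraries. These were widely apart, at 62.0 ± 0.477 against 37.3 ± 3.68 CPM (mean ± SD, n = 3 each), and the log2 difference was 0.73 (SE 0.13, edgeR adjusted p 0.013). Arid4a stood at 65.5, 65.9 and 49.7 CPM against 107, 97.8 and 87.4 (log2 difference 0.69, SE 0.15, edgeR adjusted p 0.0201). Arid4b (ENSMUSG00000039219, chr13:14063232-14199603), its paralogue in the Sin3 corepressor, stood at 72.9, 63.3 and 76.3 CPM against 115, 103 and 132 (log2 difference 0.72, SE 0.17, edgeR adjusted p 0.0278). Kdm5a (ENSMUSG00000030180, chr6:120364124-120444574), which removes methyl groups from lysine 4 of histone H3, stood at 79.8, 70.3 and 76.0 CPM against 102, 87.3 and 129 (log2 difference 0.49, SE 0.14, edgeR adjusted p 0.0496). In all 4 genes every Des-/- library was above every Des+/+ library.

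Smarcb1 and Arid4a were thus the 2 genes called in both genotype comparisons. These share no library, but both came from 1 fit of all 12 libraries with a shared estimate of spread. They are therefore not separate evidence. How many of all genes were called in both was not counted, so whether 2 of 65 is many or few is not known. Between the 2 comparisons the log2 differences correlated at 0.454 over the 65 genes and at 0.695 over all genes. The sign of the estimate was the same in both for 38 of the 65 genes (58.5%, against 72.2% of all genes). Smarcd2, Smarcd3, Chd3, Hdac1 and Hdac11 were called without swimming and not after it, where their log2 differences were 0.26, 0.41, 0.10, -0.18 and -0.89. These pairs of values do not show that the genotype difference itself depended on swimming; the test of that is the interaction given below. For Smarcd3 the estimate after swimming had the opposite sign to that at rest (95% interval -0.03 to 0.85), with 49.3, 58.4 and 58.7 CPM in Des-/- swim against 49.7, 35.8 and 39.6 in Des+/+ swim libraries. Smarcd2 stood at 77.1, 91.4 and 78.7 CPM in Des-/- swim and at 66.5, 77.5 and 62.2 in Des+/+ swim libraries, where the groups overlapped. Smarcd1 differed by -0.08 (95% interval -0.41 to 0.26). Just outside the threshold were Kmt2d, a methyltransferase of enhancers, at -0.63 (edgeR adjusted p 0.0545), Smarca2 at 0.44 (0.0626) and Kdm2a at -0.41 (0.0652), 3 genes whose groups did not overlap and which DESeq2 called. Kmt2d was also called with the replicate number as a block and Smarca2 with upper-quartile scaling, and both without replicate 3 of Des-/- non-swim. Smarca4 was at 0.30 (0.139). Of the class IIa deacetylases, Hdac4 was at 0.00, Hdac5 at 0.40, Hdac7 at 0.58 and Hdac9 at -0.35, and 0 of the 4 were called by edgeR or DESeq2. Of the genes highest per length in their families, Chd4 differed by 0.12 (95% interval -0.25 to 0.49) and Smarcc2 by 0.08 (-0.28 to 0.44). Arid1a differed by 0.11 (-0.18 to 0.40) and Kmt2e by 0.39 (0.04 to 0.73).

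Leaving out 1 library changed this count. Without replicate 3 of Des+/+ swim, 0 genes were called (Smarcb1 then had an edgeR adjusted p of 0.061), and 0.550% of all genes. Without replicate 1 of Des-/- swim 1 was (3.76% of all genes), and without replicate 1 or 2 of Des+/+ swim or replicate 3 of Des-/- swim 2 were (4.19%, 6.11% and 4.97% of all genes). Without replicate 3 of Des-/- non-swim, 7 were called, against 16.1% of all genes. Smarcb1 was called in 11 of the 12 fits that left out 1 library, Arid4a in 9, Arid4b in 7 and Kdm5a in 2. The libraries whose loss ended the call were, beside replicate 3 of Des+/+ swim for each of the 4 genes, replicates 1 and 2 of Des-/- swim for Arid4a (adjusted p 0.0513 to 0.0793), and replicates 1 and 2 of Des+/+ swim and 1 and 3 of Des-/- swim for Arid4b (0.0637 to 0.0779). For Kdm5a they were 10 of the 12, all but replicate 3 of Des-/- non-swim and replicate 2 of Des-/- swim, with adjusted p of 0.0572 to 0.143. With the cell score covariate, Arid4a was called at 0.79 and Kdm6b at -1.23 (2 of 65, against 5.36% of all genes). Smarcb1, Arid4b and Kdm5a were at 0.58, 0.78 and 0.35 (edgeR adjusted p 0.0509, 0.0598 and 0.224). The score did not overlap between genotypes here either, so this fit has the same limit.

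**Figure D4:**
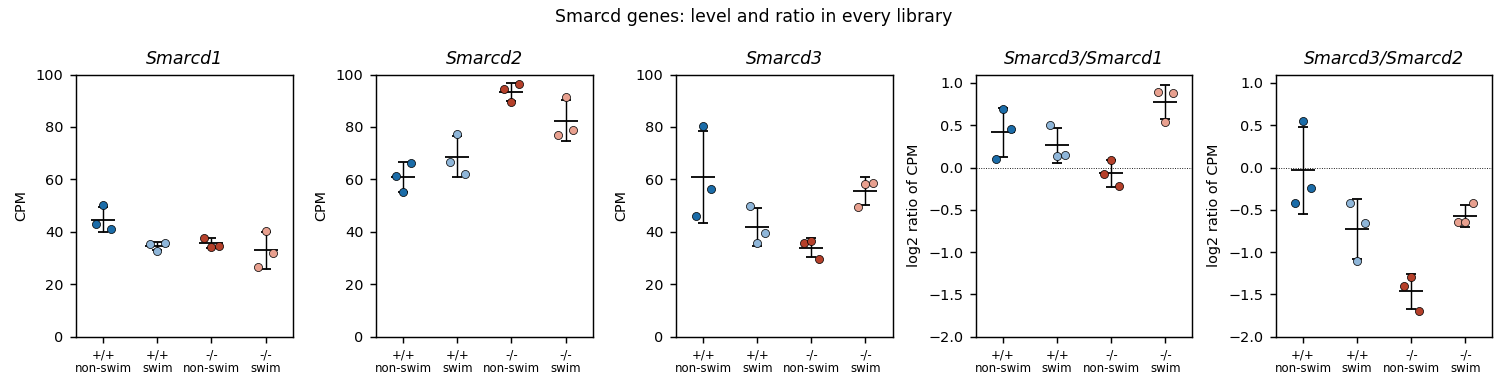
Level of the 3 Smarcd genes in CPM (first 3 panels, y axis from 0) and the log2 ratio of Smarcd3 to Smarcd1 and to Smarcd2 within each library (last 2 panels). Points are libraries, bars the mean and SD of each group of 3. The Smarcd3 to Smarcd2 ratio is below that of every other library in the 3 Des-/- non-swim libraries.

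A ratio of 2 genes within a library does not depend on the scaling of that library. The log2 ratio of Smarcd3 to Smarcd2, 2 subunits that can take the same place in BAF complexes, was -0.41, 0.55 and -0.24 in Des+/+ non-swim, -0.42, -1.11 and -0.65 in Des+/+ swim, -1.40, -1.30 and -1.70 in Des-/- non-swim and -0.64, -0.65 and -0.42 in Des-/- swim libraries. The Des-/- non-swim libraries were the lowest of the 12; this pair was chosen after the values were seen. The ratio of Smarcd3 to Smarcd1 had group means of 0.42, 0.26, -0.07 and 0.77 in the same order, and the Des-/- swim libraries (0.54 to 0.89) overlapped only with the Des+/+ non-swim libraries (0.10 to 0.69). The ratio of Hdac2 to Hdac1, which share the NuRD and Sin3 complexes, was 1.50, 1.89 and 1.80 in Des+/+ non-swim libraries. It was 1.04 to 1.21 in Des+/+ swim, 1.00 to 1.27 in Des-/- non-swim and 0.82 to 1.44 in Des-/- swim libraries, so that every other library was lower. The ratio of Chd3 to Chd4 had a mean of -1.79 in Des+/+ non-swim and -1.30 in Des-/- non-swim libraries, with ranges of -2.13 to -1.62 and -1.60 to -1.01. Ratios of Smarca2 to Smarca4 stayed between -0.34 and 0.28 in all 12 libraries, those of Arid1b to Arid1a between -1.67 and -0.90, and those of Kmt2b to Kmt2a between -0.80 and -0.18. Kdm5b to Kdm5a had means of -0.77, -0.79, -0.86 and -1.44, Smarcc2 to Smarcc1 of 2.01, 2.41, 1.77 and 2.27, and Hdac9 to Hdac5 of -2.50, -2.70, -2.91 and -3.47, in the same order of groups. The ratio of Kdm6b to Kdm6a had means of 1.16, 2.32, 1.48 and 1.50. It was 1.84 to 2.66 in Des+/+ swim libraries, above the 0.97 to 1.43 of Des+/+ non-swim libraries, and reached from 0.67 to 2.70 in Des-/- non-swim and from 0.79 to 2.51 in Des-/- swim libraries, with replicate 3 the highest of each.

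Swimming gave no gene called by edgeR in either genotype. In Des+/+ mice 0 of 65 were called by edgeR (0%, against 0.0912% of all genes) and 2, Kdm6b and Kmt2b, by DESeq2 (3.08%, against 6.17%). There were 9 at an unadjusted edgeR p under 0.05 (13.8%, against 20.5%), and the libraries did not overlap for 14 (21.5%, against 31.3%). Kdm6b had the smallest p: it stood at 97.0, 97.4 and 105 CPM in Des+/+ non-swim and at 162, 188 and 203 CPM in Des+/+ swim libraries, which did not overlap (log2 difference 0.88, SE 0.26, edgeR adjusted p 0.121). With the 6 Des+/+ libraries alone this difference was called (0.95, edgeR adjusted p 0.021), as it was without replicate 3 of Des-/- non-swim (0.90, adjusted p 0.0335), in which Kdm6b stood at 206 CPM against 105 and 93.1 in the other 2 libraries of that group. Kmt2b, a methyltransferase of lysine 4, stood at 69.9, 79.7 and 71.4 CPM against 99.1, 105 and 80.5 (log2 difference 0.37, edgeR adjusted p 0.138), and Kmt2d at 142, 125 and 149 CPM against 222, 224 and 158 (0.54, adjusted p 0.153). All 5 Kmt2 genes had estimates above 0 here, with a median of 0.31, against -0.08 over all genes.

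In Des-/- mice 0 of 65 were called by edgeR (0%, against 0.0228% of all genes) and 1, Kdm3a, by DESeq2 (1.54%, against 2.58%), with 9 at an unadjusted p under 0.05 (13.8%, against 16.7%). Kdm3a, which removes methyl groups from lysine 9 of histone H3, stood at 62.6, 63.5 and 64.3 CPM in Des-/- non-swim and at 95.1, 75.2 and 89.4 CPM in Des-/- swim libraries (log2 difference 0.45, SE 0.12, edgeR adjusted p 0.187). Smarcd3 stood at 35.7, 36.5 and 29.7 CPM against 49.3, 58.4 and 58.7 (0.71, SE 0.20, adjusted p 0.194), and Kdm4a, a demethylase of lysines 9 and 36, at 64.6, 66.5 and 72.4 CPM against 49.8, 61.7 and 52.2 (-0.32, SE 0.12, adjusted p 0.236). In these 3 genes the groups did not overlap, as in 12 of the 65 (18.5%, against 19.4% of all genes). The fit behind these edgeR values did not pair libraries by number.

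The interaction, the swimming difference in Des-/- minus that in Des+/+ mice, was called by edgeR for 0 of 65 (0%, against 0% of all genes) and for 8 at an unadjusted p under 0.05 (12.3%, against 16.3%); DESeq2 called 1, Smarcd3 (1.54%, against 2.49% of all genes). Smarcd3 had the smallest p, at 1.25 on the log2 scale (SE 0.29, 95% interval 0.63 to 1.88, unadjusted p 0.000956 and adjusted p 0.199 by edgeR; adjusted p 0.0125 by DESeq2). Its level was 60.9 ± 17.7 CPM without and 41.7 ± 7.18 CPM with swimming in Des+/+, and 33.9 ± 3.74 and 55.5 ± 5.30 CPM in Des-/- libraries (mean ± SD, n = 3 each). Kmt2d followed at -0.80 (edgeR adjusted p 0.214) and Kdm6b at -1.10 (0.215).

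**Figure D5:**
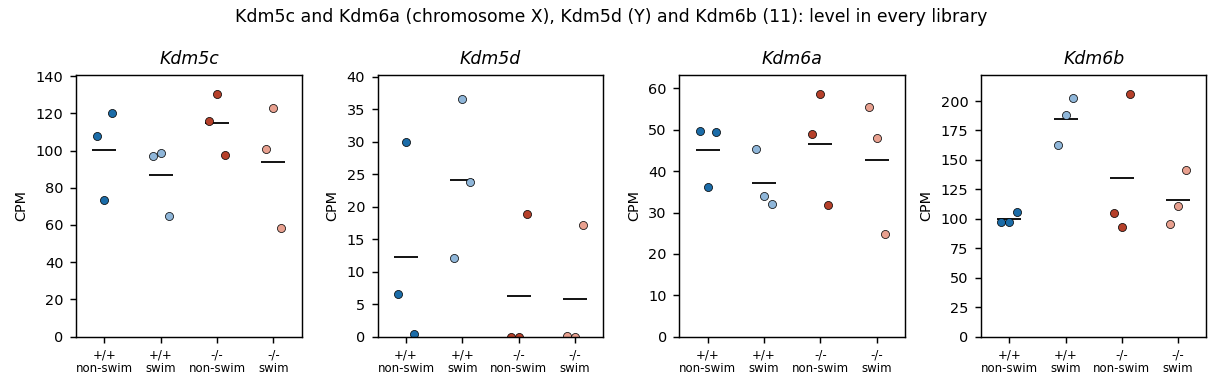
Level in CPM (y axis, from 0) of Kdm5c, Kdm5d, Kdm6a and Kdm6b in every library. Points are the 3 libraries of each group (replicates 1 to 3 from left to right), and horizontal bars the group means. Kdm5d is at or near 0 in replicates 1 and 2 of both Des-/- groups, and Kdm6b is highest in replicate 3 of Des-/- non-swim and in the Des+/+ swim libraries.

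The demethylases with a copy on a sex chromosome varied between pools. Kdm5d, on chromosome Y, stood at 6.60, 29.9 and 0.451 CPM in Des+/+ non-swim, at 12.2, 36.6 and 23.8 in Des+/+ swim, at 0, 0 and 18.8 in Des-/- non-swim and at 0.142, 0 and 17.2 CPM in Des-/- swim libraries. A count of 0 there allows up to 3 reads, which come to 0.319 and 0.340 CPM in replicates 1 and 2 of Des-/- non-swim and to 0.656 CPM in replicate 2 of Des-/- swim libraries, for counting error only. The labels do not give the sex of the mice. The Y-linked Ddx3y was likewise at 0 and 0 CPM in replicates 1 and 2 of Des-/- non-swim and at 92.3 in replicate 3. Summed over 4 Y-linked genes, levels were 72.7, 245 and 4.06 CPM in Des+/+ non-swim and 144, 292 and 291 in Des+/+ swim libraries. In Des-/- libraries they were 0.106, 0 and 179 CPM without and 0.995, 0.437 and 272 CPM with swimming. The sex make-up of pools may thus differ between the genotypes compared, for every gene tested. Its part in the genotype differences was not tested beyond the covariate fit below. The genotype differences of Kdm5d, -0.94 and -2.03 on the log2 scale, came with standard errors of 1.71 and 1.77 and were not called. The X-linked Kdm5c stood at 108, 73.4 and 120 CPM in Des+/+ non-swim and at 116, 131 and 97.8 CPM in Des-/- non-swim libraries, with a log2 difference of 0.19 (95% interval -0.41 to 0.79). After swimming it was 97.0, 98.7 and 64.7 CPM in Des+/+ against 101, 123 and 58.3 in Des-/- libraries. The X-linked Kdm6a stood at 49.6, 36.2 and 49.4 CPM against 49.1, 58.7 and 31.8 without swimming and at 45.4, 34.0 and 32.0 against 55.5, 48.1 and 24.8 CPM after it, with log2 differences of 0.04 and 0.20. Replicate 3 was the lowest library for both X-linked genes in both Des-/- groups, in which it was also the highest for Kdm5d. With the level of 3 other Y-linked genes as a covariate, the log2 differences of Kdm6a came to -0.28 and -0.40, and 8 of the 65 genes were called without swimming (12.3%, against 38.5% of all genes) and 7 after it (10.8%, against 18.8%). Without swimming, Arid4a lost its call in that fit (0.38, edgeR adjusted p 0.0613), and Kdm6b (0.53, edgeR adjusted p 0.0483) and Kdm1b gained a call. After swimming, all 4 calls of the main fit were kept, and Hdac11, Kdm2a and Kmt2d were added. The autosomal Kdm6b differed by 0.43 without swimming (95% interval -0.15 to 1.01), where leaving out replicate 3 of Des-/- non-swim brought the estimate to -0.01, and by -0.67 after swimming (-1.25 to -0.09; edgeR adjusted p 0.117). Without that library the estimate after swimming was -0.67 and called (edgeR adjusted p 0.019), and without replicate 3 of both Des-/- groups it was -0.83 (0.0133).

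Other chromatin genes were taken from lists of complex partners and related enzymes, whose counts stand against 14.0% of all genes called higher and 18.0% lower without swimming, and 5.01% and 5.57% after it. Of 17 further SWI/SNF subunits tested, 0 rose and 2 fell without swimming: Dpf3, a BAF subunit of heart and muscle, by 1.60, and Brd7 of PBAF by 0.69 on the log2 scale. Brd9 was the 1 called after swimming, at 0.98. Of 25 partners of the NuRD and other deacetylase complexes, 1 rose (Mta2, 0.35) and 2 fell (Rbbp7, by 0.64, and Suds3, by 0.42) without swimming, and 0 were called after it. Of 19 KMT2 partners and other methyltransferases of lysine 4, 1 rose (Psip1, 0.51) and 3 fell without swimming, among them the muscle methyltransferases Smyd1, at -2.53, and Smyd2, at -0.99. After swimming 1 rose, again Psip1 (0.61), and 2 fell, Wdr5 and Setd7, at -0.50 and -0.70. Of 10 genes of Polycomb repressive complex 2, which methylates lysine 27, 2 rose without swimming, Ezh2 at 1.23 and Phf19 at 1.17, and 0 were called after it. Of 14 acetyltransferases, 0 rose and 2 fell without swimming (Kat2b, at -0.85, and Ncoa2, at -0.38), and Ncoa3 fell after it, by 0.57. Of 13 genes listed as other histone methyltransferases, 1 fell (Setd3, by 0.47) without swimming and 1 rose (Ehmt2, 0.52) after it. Whether each gene of this list acts on histones was not examined. Of 21 ISWI and INO80 partners 2 rose without swimming (Hells, 1.63, and Ino80e, 0.52), and after it 1 rose (Atrx, 0.53) and 1 fell (Ino80d, by 0.51). Of 7 sirtuins, the NAD-dependent deacetylases, the mitochondrial Sirt3 and Sirt5 fell without swimming, at -1.26 and -1.24, and Sirt7 rose after it, by 0.73. Of 11 MEF2 factors and kinases of class IIa deacetylases, 0 rose (against 14.0% of all genes) and 5 fell (against 18.0%) without swimming: Camk2a at -2.17, Camk2b at -1.12, Camk2d at -1.02, Mef2d at -0.60 and Mef2a at -0.60. Camk2d and Mef2a also fell after it, at -0.81 and -0.66. The median log2 difference of these lists without swimming ran from -0.37 (sirtuins) to 0.26 (other histone methyltransferases), against 0.10 for the 65 genes and 0.04 for all genes; the shift in cardiomyocyte, fibroblast and macrophage markers given above goes with the same contrast, and its part in these differences was not tested.

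Starts of these genes were rich in CpG. One RefSeq window of 250 bases before the start was matched to 49 of the 67 genes and to 16183 genes in all. The median share of G and C was 61.2% in the 49 windows and 56.0% in all, and the median number of CpG was 18 and 11. The CpG content was at least 0.6 of that expected from the base composition in 38 of 49 windows (77.6%), against 47.8% of all windows. The GC box GGGCGG, read on both strands, was found in 35 of 49 windows (71.4%, against 45.0%), CCAAT in 36.7% (36.6% of all), TATAAA in 10.2% (12.1%), the MCAT motif CATTCC of muscle genes in 10.2% (11.4%) and the ETS core CCGGAAG in 10.2% (9.61%). The cyclic AMP motif TGACGTCA was in 0 of 49 windows, against 2.11% of all. The GC box has G and C only and so follows base composition, and a match describes letters, not a bound site.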

How the data were processed

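Poly-A RNA of adult cardiomyocytes was measured in 12 libraries, grouped by their labels. The authors deposited unnormalised read counts per gene, made with HISAT2 2.2.1 (alignment to GRCm38, single-end reads) and HTSeq. Reads that matched no gene in counting (34.0 to 64.5% of those counted) stayed out of library sizes. The library kit is TruSeq RNA, which keeps no strand, in the labels but a strand-specific one in the paper. The paper's methods give HTSeq counting as set to the reverse strand. Reads matching more than 1 gene were set aside as ambiguous, at 17521 to 59187 per library. Whether kit and strand setting matched in these libraries, and what a mismatch would do to the share matching no gene, was not tested. The labels do not say which mice made up which library, and p-values measure the spread between these pools.

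The tests used edgeR 4.0.16 in R 4.3.3. Genes passing filterByExpr (13158) were scaled by TMM, and a model with 1 mean per group took in all 12 libraries, which left 8 residual degrees of freedom (common biological coefficient of variation 0.271). Quasi-likelihood tests were made on the whole table for 5 contrasts, adjusted by Benjamini and Hochberg over all genes, and called at an adjusted p under 0.05. CPM used the TMM-scaled totals, and RPKM divided these by the exon length of GENCODE M21, in which all 67 genes were found. Replicates of a group differed by more than counting noise (chi-square per degree of freedom of 9.52 to 122). Alternatives were DESeq2 1.42.0 (genes without an adjusted p were not counted as called), other scalings, no filter, fits of the 6 libraries compared, a replicate block, a cell score covariate and leaving out each library. Leaving out replicate 3 of both Des-/- groups and a Y-linked covariate were added after the data were seen. In the swimming comparison in Des-/- mice, same-numbered libraries deviated together (correlations of 0.374, 0.343 and 0.608), so the numbers may pair them. Replicate 3 of both groups also had the highest Y-linked, fibroblast and macrophage sums of its group. Whether pairing or such a shared make-up lay behind these correlations was not tested. In the other comparisons the same number was the best match for some replicates or none, with correlations of at most 0.169. The main fit did not pair libraries. The replicate block gave each number 1 effect over all 12 libraries, so no paired test of swimming in Des-/- mice alone was made. The procedure was tested on simulated counts.

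The members and gene lists were chosen with earlier results of these data known. Named genes were called genes averaging 20 or more reads, the 3 smallest p of each swimming comparison and of the interaction, 13 genes by role and the highest gene per length of each family; others were named after their values were seen. Promoter windows came from RefSeq (GRCm38.p6) and those with unread bases were left out.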

Additional observations from a re-analysis of the deposited data

Results flagged for a closer look

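Hdac1 was flagged because its swim and non-swim libraries differed in opposite directions in the 2 genotypes, without overlap. Taking each genotype alone and either direction, the groups did not overlap for 21.5% of the 65 in Des+/+ (against 31.3% of all genes) and 18.5% in Des-/- (against 19.4%). How many of all genes showed both at once in opposite directions was not counted. In Des+/+ mice it was higher in all 3 swim libraries (33.2, 31.9 and 42.1 CPM) than in the 3 non-swim libraries (31.5, 22.2 and 27.4), a log2 difference of 0.40. In Des-/- mice it was lower in all 3 swim libraries (29.7, 31.3 and 33.4 CPM, against 34.3, 38.6 and 38.1), a log2 difference of -0.23. Neither difference was called, and the interaction was -0.64 (edgeR unadjusted p 0.0143, adjusted p 0.22).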

How the results depend on the processing

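The 11 calls on named genes were kept in 183 of 231 repeats, with 47 lost and 1 change of sign. Out of 21 settings, Kdm5a was called in 7, Hdac1 in 10, Arid4a in 14 without swimming and 18 after it, Arid4b in 15, and the other 6 calls were kept in 19 or 20. Of 858 repeats of the 41 uncalled results, 29 gained a call and 41 changed sign. Genes called without swimming numbered 7, against 32.0% of all genes. They numbered 8 with DESeq2 (36.4%), 0 with the cell score covariate (0.0988%) and 14 without replicate 3 of both Des-/- groups (28.0%). Without each library in turn they numbered 5 to 8, against 19.5 to 34.4% of all genes. Genes called after swimming numbered 4, against 10.6% of all genes. They numbered 8 with DESeq2 (6 higher and 2 lower, 17.7%), 2 with the cell score covariate (5.36%) and 7 with the Y-linked covariate (18.8%). Without each library they numbered 0 to 7, against 0.550 to 16.1% of all genes. In Des+/+ mice swimming gave 2 genes with DESeq2 (6.17% of all genes), 1 with the 6 libraries alone (2.25%) and 1 with the Y-linked covariate (1.88%). It gave 3 without replicate 3 of both Des-/- groups (5.62%) and 0 to 1 without each library (0 to 1.17%). In Des-/- mice it gave 1 with DESeq2 (2.58%), and the interaction gave 1 with DESeq2 (2.49%). Causes were not tested. Upper-quartile scaling shifted the median of all genes by 0.10 and called 9 genes without swimming, against 34.4% of all genes. The share higher among all called genes was then 55.1% against 43.7%, and 67.5% after swimming. With the replicate block 7 genes were called without swimming (31.0% of all genes) and 5 after it (9.95%). In the swimming comparisons 0 were called, against 0.144% of all genes in Des+/+ and 0.0152% in Des-/- mice. In the comparison that the numbers may pair, Des-/- with swimming, no member's call changed.

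The sign changes were of uncalled genes, apart from Hdac11 (0.19 with the cell score covariate). Without swimming, Hdac4 came to 0.0898 with upper-quartile scaling, 0.0471 without a filter, 0.00204 with 6 libraries, 0.46 with the cell score covariate, 0.17 without replicate 3 of both Des-/- groups and -0.17 to 0.12 without each library. Hdac5 came to 0.46 and Kdm6b to -0.94 with the cell score covariate, Kdm5c to -0.0163, Kdm6a to -0.28 and Smarcc2 to -0.0328 with the Y-linked covariate, and Kdm6a to -0.00459 with the block. Without each library Smarca4 ran from -0.00236 to 0.115, Kdm5d from -9.62 to 0.89, Kdm6a from -0.16 to 0.26, Kdm6b from -0.0114 to 0.635 and Smarcc2 from -0.0690 to 0.156. After swimming, Smarcd1 came to 0.0189 with upper-quartile scaling, and with the Y-linked covariate Hdac4 to -0.0922, Kdm5c to -0.377, Kdm6a to -0.40, Arid1a to -0.0428 and Smarcc2 to -0.0354. Without each library Smarcd1 ran from -0.246 to 0.0550, Hdac4 from -0.17 to 0.19, Kdm5c from -0.12 to 0.36, Kdm6a from -0.0375 to 0.479, Chd4 from -0.0216 to 0.198 and Smarcc2 from -0.0615 to 0.198.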
